A study of Homo sapiens with 5 samples.

Results

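The miRNAs hsa-miR-221 and hsa-miR-222 were described in 5 human hematopoietic cell lines. They were chosen by name, as the human miRNA probes listed as hsa-miR-221 and hsa-miR-222 without a star, and they make up 2 of the 654 human probes of the panel, which holds 0 star forms of them. Total RNA was extracted with Trizol, and 100 ng from each line was read on the nCounter system, which counts color-coded reporters bound to each miRNA without amplification. The study quantified miRNAs of blood cell types and explored their use in regulating a transgene, and the lines served as cultured counterparts of blood cells. Meg-01 is megakaryoblastic and K562 erythroleukemic, both from chronic myeloid leukemia in blast crisis. Jurkat is a line of leukemic T cells, Raji a line of B cells from Burkitt lymphoma that carries Epstein-Barr virus (EBV), and U937 a line of monocytic character from histiocytic lymphoma. No treatment of any line is given. Each line was 1 sample, so no difference between lines was tested, and all intervals below are 95% intervals for counting error alone.

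Both miRNAs are cut from a common primary transcript on the X chromosome and bind many of the same mRNAs. Their best known targets are KIT, the receptor for stem cell factor, and CDKN1B, which encodes the cell cycle inhibitor p27. In normal hematopoiesis they decline as progenitors mature toward erythrocytes, which releases KIT from repression, and they are raised in many solid tumors. The mRNAs of KIT and CDKN1B were not analysed here.

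The mature sequences are shown because the seed, bases 2 to 8 and in capitals, is the part that pairs with a target and is the same in both miRNAs. The probe names give no arm, and the names without an arm were taken as the 3p form, for which RefSeq (GRCh38.p14) lists these sequences.
hsa-miR-221-3p: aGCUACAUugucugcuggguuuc
hsa-miR-222-3p: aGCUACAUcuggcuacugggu
In the hairpins, shown with the mature miRNA in capitals, both lie in the 3′ arm, at positions 65 to 87 of MIR221 and 69 to 89 of MIR222.
MIR221: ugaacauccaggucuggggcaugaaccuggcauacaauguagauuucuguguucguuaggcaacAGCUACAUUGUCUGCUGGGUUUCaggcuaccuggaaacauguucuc
MIR222: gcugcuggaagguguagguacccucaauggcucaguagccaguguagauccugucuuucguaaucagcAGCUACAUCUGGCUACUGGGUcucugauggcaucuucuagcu
Mature hsa-miR-221-3p has 23 bases and lies at chrX:45746180-45746202 on the minus strand. Mature hsa-miR-222-3p has 21 bases and lies at chrX:45747036-45747056 on the same strand. They share their first 8 bases and are identical at 11 of the 21 positions compared from the 5′ end without gaps. Both also hold the 6 bases cugggu near the 3′ end, at shifted positions that this count misses. The 3′ parts thus differ more than the seed but are related. Whether either probe also binds the other miRNA was not tested. Of the 2370 mature names in the RefSeq table, these 2 alone have the seed GCUACAU, and no further probe of the panel was added on this ground. The hairpins MIR221 and MIR222 have 110 bases each and are separated by 748 bases. No other miRNA hairpin of the table lies within 10 kb of them, and both overlap the noncoding host gene MIR222HG. The only other mature arm listed for the cluster is hsa-miR-222-5p, which does not share the seed.

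The depth behind each value, as the sum of all human probes, was 66892 counts in Raji, 94027 in U937, 105224 in K562, 109731 in Meg-01 and 130048 in Jurkat. A probe was taken as above background in a line when its count was higher than the mean of the 8 negative control probes of that line plus 2 SD. In raw counts this threshold was 34.6 in K562, 34.9 in U937, 35.02 in Jurkat, 42.1 in Meg-01 and 45.9 in Raji. Normalized counts are raw counts scaled to the geometric mean of the 100 miRNAs with the highest mean over the lines. Raji had the lowest depth and the largest scaling factor, 1.58, which also enlarged its background, so that the mean negative control stood at 36.5 normalized counts in Raji against 15.1 in Meg-01.

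The hsa-miR-221 probe gave 568 raw counts in Meg-01, 355 in U937, 220 in Jurkat, 62 in K562 and 17 in Raji. As normalized counts these were 421 in Meg-01 (387 to 457), 370 in U937 (333 to 411), 177 in Jurkat (155 to 202.2), 75.8 in K562 (58.1 to 97.2) and 26.8 in Raji (15.6 to 43.0). hsa-miR-221 was thus above background in Meg-01, U937, Jurkat and K562, and it was not in Raji, where 6 of the 8 negative controls reached at least its 17 counts. The miRNA held rank 28 of the 654 human probes in Meg-01, 29 in U937, 47 in Jurkat and 89 in K562. It made up 0.518% of the human counts in Meg-01 (exact binomial interval 0.476% to 0.562%), 0.378% in U937, 0.169% in Jurkat and 0.0589% in K562. For Raji the upper limit of the interval was 0.0407%. The levels therefore fell in the order Meg-01, U937, Jurkat, K562, Raji. At this scaling Meg-01 and U937 did not differ beyond counting error, and each further step of this order did, while as shares of the human counts the intervals of Meg-01 and U937 (0.339% to 0.419%) did not overlap. A smaller share of expressing cells in a culture and less of the miRNA per cell cannot be told apart in RNA from whole cultures.

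The hsa-miR-222 probe gave lower counts than the hsa-miR-221 probe except in Raji, and in a different order, 98 in U937, 67 in Jurkat, 66 in Meg-01, 46 in Raji and 29 in K562. As normalized counts these were 102 in U937 (83.0 to 124.6), 72.6 in Raji (53.2 to 96.9), 54.0 in Jurkat (41.8 to 68.5), 48.9 in Meg-01 (37.8 to 62.3) and 35.5 in K562 (23.8 to 50.9). hsa-miR-222 was clearly above background in U937, Jurkat and Meg-01, and within counting error of the threshold in the other 2 lines. In Raji the count exceeded the threshold by 0.136, and in K562 it was below, with 29 counts (19.4 to 41.6) against 34.6. Its rank among the human probes was 66 in U937, 107 in Jurkat and 117 in Meg-01. Its share of the human counts was 0.104% in U937, 0.0515% in Jurkat and 0.0601% in Meg-01. No neighbours in the order U937, Raji, Jurkat, Meg-01, K562 differed beyond counting error, while U937 exceeded Jurkat, Meg-01 and K562, and Raji exceeded K562. The place of Raji depended on its scaling factor, since in raw counts it stood below Jurkat and Meg-01. With the mean negative control of each line subtracted, Raji had 36.1 normalized counts, next to 35.6 in Jurkat and 33.8 in Meg-01, and U937 stood apart with 80.5.

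**Figure D1:**
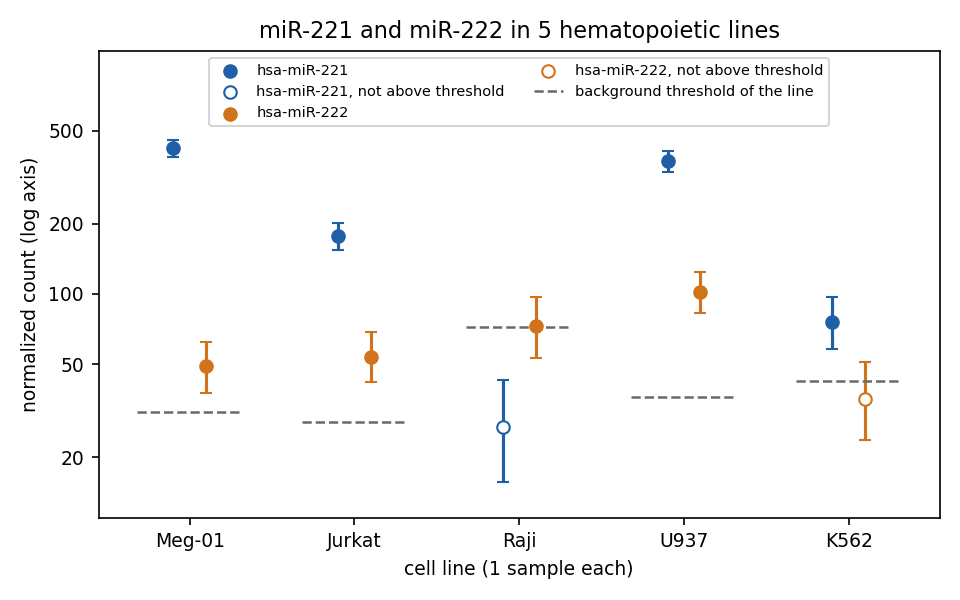
Normalized counts of hsa-miR-221 (blue) and hsa-miR-222 (orange) in the 5 lines, 1 sample each, on a log axis. Bars are exact Poisson 95% intervals for counting error, dashed lines the background threshold of each line, and open circles counts not above it. hsa-miR-221 ran from 421 in Meg-01 to background in Raji, and hsa-miR-222 stayed between 35.5 and 102.

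Background took up a larger part of the hsa-miR-222 counts than of the hsa-miR-221 counts in Meg-01, Jurkat, U937 and K562. The mean negative control equalled 30.9% of the hsa-miR-222 count in Meg-01, 34.0% in Jurkat, 21.3% in U937, 50.3% in Raji and 69.8% in K562. For hsa-miR-221 it equalled 3.59% in Meg-01, 5.88% in U937, 10.3% in Jurkat, 32.7% in K562 and 136% in Raji. Ratios between lines before subtraction carry this background, and for hsa-miR-222 its removal moved them either way. With the mean negative control subtracted, Meg-01 over U937 went from -1.06 to -1.25 on the log2 scale, and Meg-01 over Raji, where scaling had enlarged the background of Raji, from -0.57 to -0.094.

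Line-to-line differences were set against all human probes above background in either line of a pair. The ratio of hsa-miR-221 was over 2-fold in 9 of the 10 pairs of lines and that of hsa-miR-222 in 3 of 10. In the pairs where both lines were above background the numbers were 5 of 6 for hsa-miR-221 and 1 of 6 for hsa-miR-222. These are different sets of pairs, without Raji for hsa-miR-221 and without K562 for hsa-miR-222. The pairs of hsa-miR-222 include those with Raji, where its count was within counting error of the threshold. Among all tested probes the share over 2-fold in either direction was between 15% and 45.8%, depending on the pair. The calls near 2-fold depended on the processing. For hsa-miR-221, 2 of the 9 pairs went below 2-fold under at least 1 alternative: Meg-01 over Jurkat, with a log2 ratio of 0.89 under housekeeping scaling, and Jurkat over U937, with -0.69 without normalization and -0.71 in the deposited signals. For Raji over K562 the mean-subtracted ratio of hsa-miR-221 is a bound of -0.51, which leaves 2-fold unproven there. For hsa-miR-222, 2 of the 3 pairs went below 2-fold, Meg-01 over U937 and Raji over K562. Of the other pairs 6 passed 2-fold under at least 1 alternative, so its number of 3 was not settled. Among them Meg-01 over Raji passed only with the threshold subtracted, which left Raji 0.136 raw counts, so that pass measures no difference.

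The steepest difference between lines that both measured hsa-miR-221 was Meg-01 over K562, at 5.55-fold (4.27 to 7.34), in a pair where 41.8% of tested probes passed 2-fold. U937 exceeded K562 by 4.89-fold (3.72 to 6.51), and 26.6% of tested probes passed 2-fold. In both pairs with K562 the log2 ratio of hsa-miR-221, 2.47 and 2.29, lay above the 95th percentile of all tested probes, 2.45 and 1.78, by a small margin for Meg-01. The megakaryoblastic and the monocytic line thus stood well above the erythroleukemic line. The size of the difference between Meg-01 and K562 depended on the processing, with a log2 ratio from 1.996 under housekeeping scaling through 2.99 with the mean negative control subtracted to 3.80 in the deposited signals. Under housekeeping scaling U937 over K562 was the steeper difference, at 2.22. Jurkat also exceeded K562, by 2.34-fold (1.76 to 3.15), where 28.8% of tested probes passed 2-fold. That ratio lay inside the range from the 5th to the 95th percentile of the pair.

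Jurkat lay between these lines. Meg-01 exceeded it by 2.38-fold (2.03 to 2.79), in a pair where 31.7% of tested probes passed 2-fold, and U937 exceeded it by 2.09-fold (1.76 to 2.48), where 15% did. Meg-01 over U937 was 1.14-fold with an interval of 0.994 to 1.30, in a pair where 30.3% of tested probes passed 2-fold. The difference between these highest lines depended on the processing. Its log2 value was 0.19, it turned to -0.23 when counts were scaled to the housekeeping mRNA probes, and it rose beyond the counting interval to 0.46 with summed human counts, 0.68 without normalization and 0.71 in the deposited signals.

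For hsa-miR-221 the ratios against Raji compare a level with background. Before subtraction they were 15.7 for Meg-01 (9.71 to 27.1), 13.8 for U937 (8.50 to 23.96), 6.60 for Jurkat (4.03 to 11.5) and 2.83 for K562 (1.63 to 5.16). The shares of all tested probes over 2-fold against Raji were 45.8% for Meg-01, 23.8% for U937, 29.5% for Jurkat and 35.9% for K562. Ratios to Meg-01, U937 and Jurkat were beyond the 5th to 95th percentile range of their pairs and that to K562 was within it. With the mean negative control subtracted and Raji entered at its threshold, Meg-01 was at least 3.50 and Jurkat at least 2.15 log2 units above Raji. Raji over U937 was at most -3.28 and Raji over K562 at most -0.51, so the distance of K562 from Raji was the least certain.

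The hsa-miR-222 probe passed 2-fold for U937 over Meg-01, at 2.09-fold (1.51 to 2.90), for U937 over K562, at 2.88-fold (1.89 to 4.53), and for Raji over K562, at 2.05-fold (1.26 to 3.38). K562 was below the threshold, within counting error of it, so the ratios to it are against a level not told from background. The ratio of Raji over K562 was not stable, since its log2 value was -0.063 with counts scaled to the housekeeping probes. U937 over Jurkat was 1.89-fold (1.37 to 2.63), below 2-fold with an interval that excluded 1, and the remaining intervals covered 1. U937 therefore had more hsa-miR-222 than Jurkat and Meg-01, by a factor near 2 at this scaling. Over the alternatives the log2 value ran from -0.55 to -1.35 for Jurkat over U937 and from -0.57 to -1.89 for Meg-01 over U937. U937 over Raji, the next line before subtraction, was 1.41-fold with an interval of 0.982 to 2.04. Meg-01, with the highest hsa-miR-221, did not differ from Jurkat in hsa-miR-222 beyond counting error (ratio 0.907, 0.636 to 1.29). The log2 value of that ratio turned from -0.14 to 0.22 with summed human counts.

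**Figure D2:**
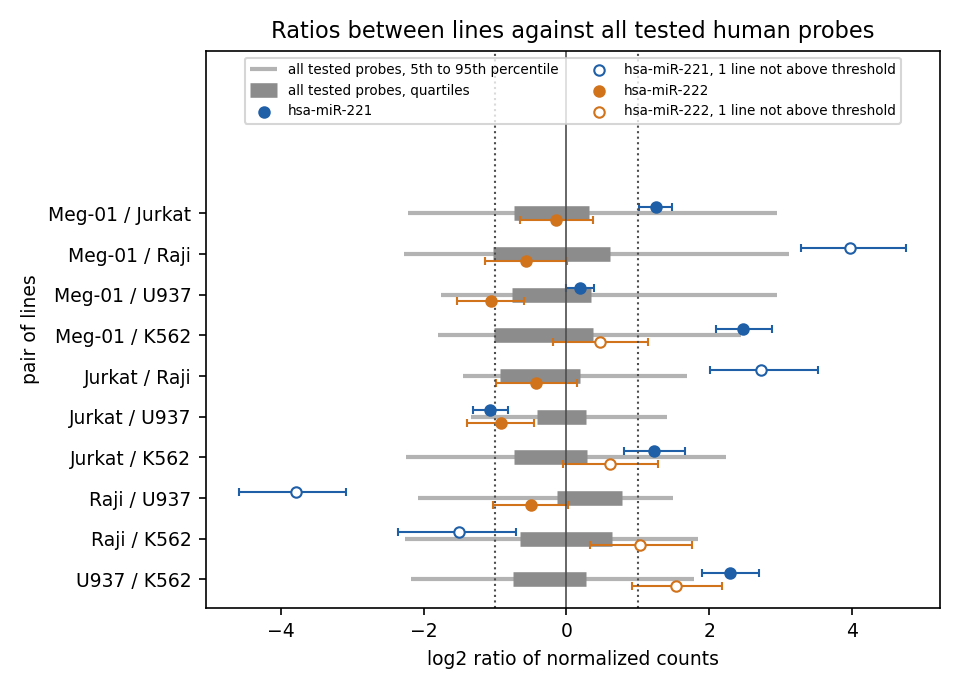
Log2 ratios of normalized counts for the 10 pairs of lines, with hsa-miR-221 in blue and hsa-miR-222 in orange. Bars are 95% intervals for counting error, open circles mark pairs with a line not above background, gray bars give the percentiles of all tested human probes, and dotted lines mark 2-fold. hsa-miR-221 passed 2-fold in 9 pairs and hsa-miR-222 in 3.

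Over the 5 lines the highest normalized count of hsa-miR-221 was 15.7-fold the lowest, which was Raji at background. A range over 4-fold was found for 24% of the 308 human probes above background in at least 1 line, and their median range was 2.67-fold, likewise before subtraction. Without Raji, a comparison added after the data were seen, the range of hsa-miR-221 was 5.55-fold, between lines that both measured it, while 21.2% of 306 probes ranged over 4-fold and the median was 2.14-fold. For hsa-miR-222 the range was 2.88-fold before subtraction, between U937 and K562, which was not above background. With the mean negative control subtracted and K562 entered at its threshold the range was 2.19 log2 units. That value is no bound, since the K562 count of 29 (19.4 to 41.6) was within counting error of its threshold of 34.6. The size of the range was thus not settled.

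The ratio of the probes within a line does not depend on scaling. Probes can differ in efficiency, so the ratio of counts is not a ratio of molecules, but a constant efficiency cancels when the ratio is compared between lines. In raw counts hsa-miR-221 over hsa-miR-222 was 8.61 in Meg-01 (6.66 to 11.3), 3.62 in U937 (2.89 to 4.58) and 3.28 in Jurkat (2.49 to 4.38), the lines with both miRNAs above background. It was 2.14 in K562 (1.35 to 3.45), where hsa-miR-222 was below the threshold, and 0.370 in Raji (0.199 to 0.657), where hsa-miR-221 was. The inverted ratio in Raji thus set a count at the threshold over a count at background and does not show that hsa-miR-222 exceeded hsa-miR-221 there.

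Meg-01 stood apart in this ratio. Its ratio was 2.62 times that of Jurkat (1.77 to 3.87) and 2.37 times that of U937 (1.67 to 3.39), both beyond counting error. Jurkat and U937 did not differ beyond counting error, with a ratio of ratios of 0.907 (0.628 to 1.31), although the normalized levels of both miRNAs were higher in U937. Between these lines hsa-miR-221 and hsa-miR-222 therefore moved by a similar factor, and between Meg-01 and either of them they did not. Its ratio was also 4.01 times that of K562 (2.32 to 6.86), where hsa-miR-222 was below the threshold. K562 could not be placed below Jurkat or U937, as the intervals of those comparisons, 0.877 to 2.65 and 0.993 to 2.84, covered 1.

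Subtracting background raised the ratio in each line where it could be computed. With the mean negative control subtracted it was 12.0 in Meg-01, 4.46 in Jurkat, 4.33 in U937 and 2.90 in K562, where hsa-miR-222 was entered at the threshold. The K562 value is no bound, because its hsa-miR-222 count was within counting error of the threshold. With the whole threshold subtracted it was 22.0 in Meg-01, 5.78 in Jurkat and 5.07 in U937. The size of the ratio thus depended on the background taken off, while Meg-01 remained higher than Jurkat and U937 under each choice. The order of Jurkat and U937 differed between the choices and was not settled.

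To see how far the ratio of clustered miRNAs usually moved, 41 other pairs of miRNAs known to lie in a common cluster were listed, of which 40 had both probes on the panel. In 22 of them the hairpins lay within 10 kb in RefSeq and both miRNAs were above background in Meg-01, Jurkat and U937, the 3 lines that measured hsa-miR-221 and hsa-miR-222 together. Over these 3 lines the log2 ratio of hsa-miR-221 to hsa-miR-222 had a range of 1.39, or 2.62-fold. The median over the 22 pairs was 0.78, or 1.72-fold, with values from 0.24 to 2.92. A wider range than that of hsa-miR-221 and hsa-miR-222 was found in 6 of 22 pairs, so their ratio moved more than that of most listed pairs without being extreme. Their range is that of Meg-01 over Jurkat, with a counting interval of 1.77 to 3.87-fold, whose low end is near the median of the pairs. Intervals of the other pairs were not computed, and some of these pairs share a miRNA.

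Many of the wide pairs include a miRNA that is also made at other loci, as with let-7a and let-7d at 2.92 or miR-29a and miR-29b at 2.32. Some of the narrowest do as well, as with miR-106a+miR-17 and miR-20a+miR-20b at 0.24 or miR-19b and miR-92a at 0.33. Whether further loci widen the range was not tested. Where both miRNAs come from 1 locus, as hsa-miR-221 and hsa-miR-222 do, 10 pairs remained with a median of 0.64, or 1.57-fold. Of these 10 the pair of let-7e and miR-125a-5p had a wider range, 2.30. The narrowest of the 10 was miR-191 with miR-425, at 0.33. Probes of let-7 miRNAs can bind close relatives, and the part of this in their ranges was not tested.

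**Figure D3:**
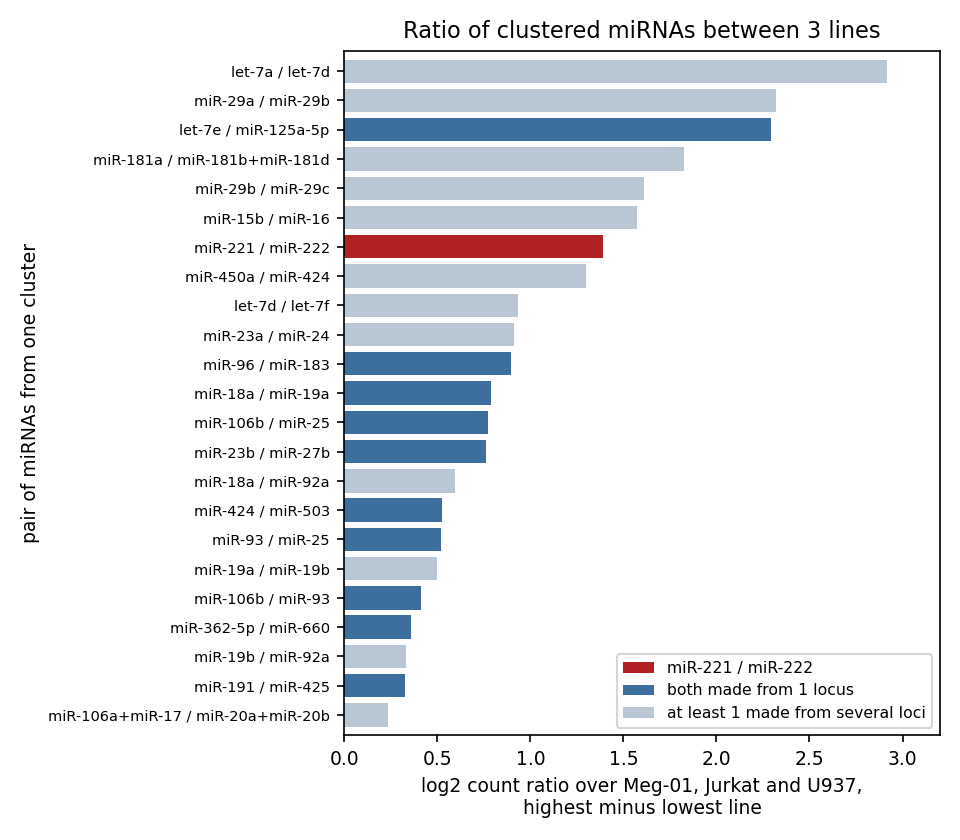
Highest minus lowest log2 count ratio over Meg-01, Jurkat and U937 for pairs of miRNAs from a common cluster. The pair of hsa-miR-221 and hsa-miR-222 (red) stands at 1.39, below 6 of the 22 other pairs and below 1 of the 10 made from 1 locus each (dark blue).

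The probes with the most similar pattern over the 5 lines were sought among 156 others above background in at least 3 lines, by the root mean square difference of log2 normalized counts after centering each probe on its mean. The 5 closest to hsa-miR-221 were miR-340 (0.77), miR-24 (0.79), miR-23a (0.93), miR-223 (1.09) and miR-103 (1.13). All 5 were lowest in Raji, where miR-340, miR-24 and miR-23a were, like hsa-miR-221, not above background, so part of this likeness is a shared background. miR-24, a miRNA also described as acting on CDKN1B, had 788 normalized counts in Meg-01, 692 in U937, 239.7 in K562 and 105 in Jurkat and was below the threshold in Raji. miR-340 differed in having more in Jurkat, 336, than in Meg-01, 307. hsa-miR-222 was at rank 23 in likeness to hsa-miR-221, with a difference of 1.50.

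The 5 closest to hsa-miR-222 were miR-455-3p (0.28), miR-660 (0.32), miR-15b (0.38), miR-383 (0.40) and miR-30c (0.42). These differences were smaller than those found for hsa-miR-221, which had the wider range. miR-455-3p, with 20 to 46 raw counts, was near background itself. miR-15b was abundant, from 1748 normalized counts in Meg-01 through 2386 in K562 and 2867 in Jurkat to 3042 in Raji and 3327 in U937. From the side of hsa-miR-222, hsa-miR-221 was at rank 140 of the 156. The difference between the members includes Raji, with 26.8 normalized counts of hsa-miR-221 and 72.6 of hsa-miR-222, neither clearly above background. The measure also places a probe of wide range far from one of narrow range. The 2 lists shared 0 probes.

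Other miRNAs described as acting on KIT or CDKN1B did not share 1 pattern over the lines. Of 9 listed, 4 were above background in all lines, miR-494, miR-193a-3p, miR-148a and miR-181a, and miR-152 was in none. Of the 8 above background in at least 1 line, 4 had a range over 4-fold, against 24% of all such probes, and the median range was 3.91-fold against 2.67-fold. miR-181a had the widest range, from 2055 normalized counts in Jurkat and 1792 in Meg-01 to 78.3 in K562. Like hsa-miR-221, miR-24 was highest in Meg-01 and lowest in Raji, in raw and in normalized counts. miR-193a-3p had these extremes in raw counts, 271 and 196, but as normalized counts it was highest in Raji, with 309. Of the other miRNAs described as acting on KIT, miR-193b was highest in Raji, with 134 normalized counts, and miR-494 in U937, with 164.

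Marker miRNAs were read beside these levels to check the labels. miR-142-3p, a miRNA of blood cells in general, gave 7436 to 32907 raw counts. miR-126, of megakaryocytes and progenitors, was highest in K562 and Meg-01, with 1812 and 1449 normalized counts, against 48.9 to 100.2 in the other lines. The order of K562 and Meg-01 depended on the scaling, since the raw counts were 1482 and 1954. The erythroid miR-144 and miR-451 were above background in Meg-01 and K562 alone, with 727 and 95.6 normalized counts in Meg-01 against 264 and 72.2 in K562. As normalized counts these markers thus did not separate the megakaryoblastic from the erythroleukemic line in the direction of their labels. In raw counts miR-126 ran in that direction, while miR-144 and miR-451 were again higher in Meg-01. Lymphoid miR-150 was above background in Jurkat alone, with 1030 raw counts, and not in the B cell line Raji, which had 21. Myeloid miR-223 had 2798 normalized counts in U937, 2424 in Meg-01 and 2059 in K562, and was lowest in Raji, with 97.9. In raw counts miR-223 was highest in Meg-01, with 3269 against 2682 in U937. Raji was the line with the EBV miRNAs BHRF1-2 and BART8, at 296 and 155 raw counts. Of 5 markers of epithelium, liver and muscle, miR-205, miR-1 and miR-133a were above background in no line, and miR-200c and miR-122 in Jurkat alone, at 44 and 36 raw counts against a threshold of 35.02. Meg-01 and K562 thus had more miR-126, miR-144 and miR-451 than the other lines. Their levels still differed in miR-144, with 727 against 264 normalized counts, and in hsa-miR-221, with 421 against 75.8.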

How the data were processed

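The authors deposited raw counts of 753 probes for each line, neither scaled nor corrected for background. The authors also deposited signals of the human probes, each the raw count less a constant of the line, with 0 in place of negative results. The lines' kit version is not given in the sources used here. Following the methods, a factor per line equalized the geometric mean over 100 miRNAs, those with the highest mean count, and the threshold was the mean plus 2 SD of 8 negative controls. The methods then subtract the background from each value. Here main values are before subtraction, and subtracted values are alternatives. Levels have exact Poisson intervals, ratios of counts conditional binomial intervals, shares exact binomial intervals, and ratios of ratios the conditional odds ratio interval. Intervals leave out variation between cultures, RNA preparations and lanes.

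The named miRNAs are hsa-miR-221 and hsa-miR-222, probes sharing their seed, the listed target and marker miRNAs and cluster pairs, and the 5 probes most like each by root mean square difference. The members and lists were chosen with earlier results of these data known.

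Alternatives were no normalization, the 100 highest of each line, scaling to positive controls, housekeeping probes or summed human counts, subtraction of the mean or of the threshold, the deposited signals, and thresholds at the mean or the highest negative control or at 30 counts. Leaving out Raji was added after seeing the data. Sequences, positions and neighbours are from RefSeq (GRCh38.p14). Python 3.11.15, numpy 2.4.6, pandas 2.3.3, scipy 1.17.1 and matplotlib 3.10.9 were used. The scaling and intervals were checked on simulated Poisson counts, which hold no variation between lanes or cultures. Recovery of the scaling was required only in the lines whose simulated probes were left unchanged.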

Additional observations from a re-analysis of the deposited data

How the results depend on the processing

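From the lowest to the highest line, the log2 difference was 3.97 for hsa-miR-221. It became 5.06 without normalization and 4.87 with scaling to the positive controls, and fell to 2.47 without the Raji line, an alternative chosen after seeing the data. For hsa-miR-222 it was 1.53, and it became 2.19 with scaling to the positive controls and 3.63 in the deposited signals, where K562 is at 6.25. With the mean negative control subtracted and K562 entered at its threshold it was also 2.19, which is no bound. Scalings moved the log2 ratio of every probe between a pair of lines by up to 0.13 with the 100 highest of each line, 0.66 with summed human counts, 0.96 with positive controls, 1.10 with housekeeping probes and 1.09 without normalization. Of 72 alternative values for pairs of lines of hsa-miR-221, 40 stayed within the counting interval, 32 moved beyond it and 1 had the other sign, in Meg-01 over U937. The 9 pairs over 2-fold kept their sign, with 3 alternative values in 2 of them below 2-fold and a bound of -0.51 for Raji over K562 that does not reach it. Of 76 for hsa-miR-222, 50 stayed, 26 moved beyond it and 13 had the other sign, in 5 pairs. Of the 3 pairs over 2-fold, 2 went below it in 6 alternative values, 6 of the other pairs passed it in 21, and Raji over K562 turned, its log2 ratio going from 1.03 to -0.063 with housekeeping scaling. Values of hsa-miR-222 against Raji with the threshold subtracted rest on a remainder of 0.136 raw counts in Raji. The log2 ratio of hsa-miR-221 over hsa-miR-222 in Meg-01 rose from 3.11 to 3.59 with the mean subtracted, 4.46 with the threshold subtracted and 3.59 in the deposited signals. In Jurkat it rose from 1.72 to 2.16 with the mean and 2.53 with the threshold subtracted, in U937 from 1.86 to 2.34 with the threshold subtracted, and in K562 from 1.10 to 2.65 in the deposited signals. Its range over Meg-01, Jurkat and U937 rose from 1.39 to 2.12 with the threshold subtracted, and the number of wider cluster pairs was 5 or 6 of 22 throughout. Subtraction raises a ratio of unequal counts by construction, and the cause of the other changes was not tested. hsa-miR-221 was above background in 4 lines at each threshold, hsa-miR-222 in 4, in 5 at the mean of the negative controls and in 3 at the highest. With the mean subtracted, 4 of the 5 probes most like hsa-miR-221 and 3 of the 5 most like hsa-miR-222 were kept, and scaling cannot change these lists, since it cancels between probes. Subtracting the threshold gave no value where a miRNA was not above it, nor did the deposited signals for hsa-miR-221 in Raji, listed at 0, nor any subtraction for the ratio in Raji. No paired analysis was possible because each line had 1 sample. Depth limits Raji most, and counts of hsa-miR-222 were under 100 in every line.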

Other observations

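The constant subtracted in the deposited signals was found from the human probes above 0. It was 20.37 in Meg-01, 23.12 in Raji and 20.87 in U937, in each case the mean of that line's own negative controls to within rounding. In K562 it was 22.75, which is the mean of the negative controls of Jurkat and 2.50 above that of K562, and in Jurkat it was 16.25, which equals the mean of none of the 5 lines. As a result, K562 has 39.25 for hsa-miR-221 and 6.25 for hsa-miR-222 in the deposited signals, and Jurkat 203.75 and 50.75. The weak hsa-miR-222 signal of K562 is the value most affected in relative terms, and it was below the background threshold in any case. Why these constants differ was not tested.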
